A study of Mus musculus with 6 samples.

Results

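Pericyte markers were followed in cancer-associated fibroblasts sorted from mouse lung tumours. The set is 7 named genes, Kcnj8, Abcc9, Cspg4, Mcam, Cox4i2, Higd1b and Rgs5, taken by symbol from the 55298 genes in the deposited files, and each symbol matched 1 gene. RNA-seq had been done on 3 libraries of antigen-presenting fibroblasts (apCAFs 1, 2 and 3) and 3 libraries of fibroblasts without surface MHC class II (nonapCAFs 4, 5 and 6). All came from orthotopic lung tumours of C57BL/6 mice labelled wt and over 8 weeks old. Tumours were pooled, and per the labels both populations were isolated at the same time, in 3 independent experiments. In both populations the gate took cells high for forward scatter, negative for CD45, CD31, EPCAM and mCherry, and positive for PDGFRa and for the marker that the labels spell PDPL, so the populations differ by label only in MHCII. A library therefore stands for a pool of tumours and not for 1 animal, and the labels do not say which apCAFs library shares an experiment with which nonapCAFs library.

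Pericytes are mural cells that wrap capillaries within the vessel basement membrane, where they steady the vessel wall and set its calibre. They are drawn to new vessels by PDGF-B from endothelial cells, which acts on the receptor PDGFRB, and Notch3 signalling keeps them in place. No single gene defines them, and they are told apart by panels such as this one, several of whose genes are also used by smooth muscle, endothelial cells or glia. Kcnj8 and Abcc9 encode the pore (Kir6.1) and the regulatory subunit (SUR2) of the ATP-sensitive potassium channel of vascular cells. Cspg4 (the NG2 proteoglycan) and Mcam (the adhesion molecule CD146) lie at the cell surface. Cox4i2 encodes a lung-enriched form of subunit 4 of cytochrome c oxidase, Higd1b a mitochondrial protein of the hypoxia-inducible domain family, and Rgs5 a brake on G protein signalling.

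The 7 genes did not move as a block. Kcnj8 and Abcc9 rose in apCAFs, Cspg4 and Cox4i2 had higher values in every apCAFs library without passing the test, Mcam overlapped between the groups, and the faint Rgs5 and Higd1b had lower means in apCAFs. By limma on log2(value + 1), with Benjamini-Hochberg adjustment over all 36443 genes tested and a threshold of 0.05, 2 of 7 genes were called higher and 0 lower. Of all genes tested, 4.40% were called in either direction, 3.91% higher and 0.486% lower. Before adjustment, limma gave p under 0.05 for 4 of the 7 with higher and 1 with lower values in apCAFs, against 13.1% and 6.19% of all genes tested. In 4 of 7 genes the lowest apCAFs library lay above the highest nonapCAFs library, and in 1 of 7 the groups were separated the other way. Over all genes tested the groups were separated in this manner in 17.1% and 15.4%. The median log2 fold change of the 7 genes was 1.13, against -0.04 over all genes tested. In the authors' deposited table, 6 of the 7 genes have a DESeq2 adjusted p and 3 of these pass at 0.05, all higher in apCAFs, against 20.6% of the 19255 genes with an adjusted p in that table. The libraries apCAFs 1 and 2 were close to each other, as were nonapCAFs 4 and 5, and with each close pair averaged limma called 0 of the 7, with p under 0.05 before adjustment for 4 higher and 1 lower. Higd1b was close to 0 and Rgs5, a widely used pericyte marker, was low and scattered between libraries, so the set is described gene by gene and not as a measure of pericytes. Values are the authors' normalized counts, and the sequencing depth behind them is unknown. In bulk RNA of this kind, a change in the number of cells of a type and a change in RNA per cell cannot be told apart.

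**Figure D1:**
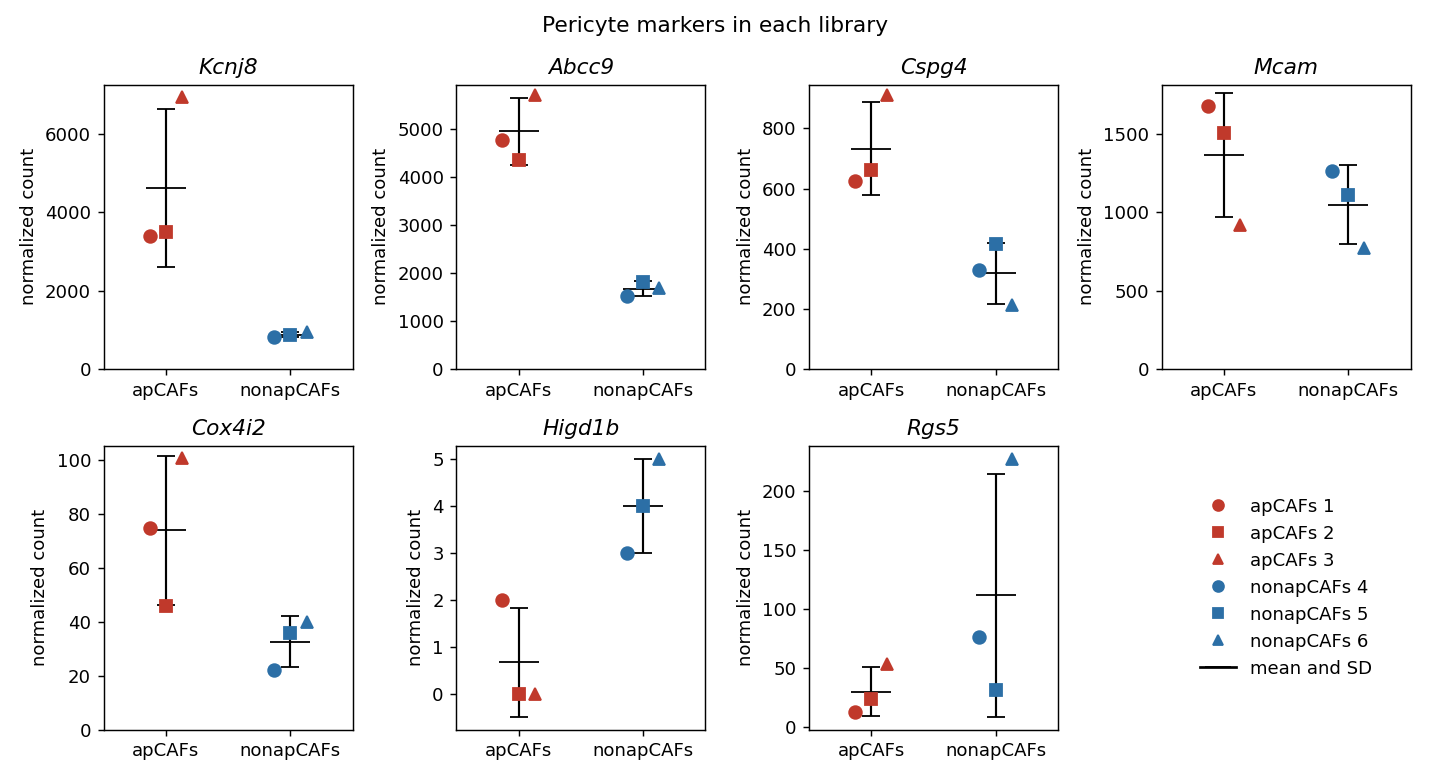
Normalized counts (y axis, linear) of the 7 pericyte markers in apCAFs and nonapCAFs, with 1 symbol for each library and a bar for the mean and SD of 3 libraries. The groups do not overlap for Kcnj8, Abcc9, Cspg4 and Cox4i2 (higher in apCAFs) or for Higd1b (lower in apCAFs, at 0 to 2 against 3 to 5), while they overlap for Mcam and Rgs5.

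The channel subunits carried the clearest difference. Kcnj8 (chromosome 6, 142564837 to 142571614, minus strand) read 3405, 3508 and 6945 in apCAFs 1, 2 and 3, against 824, 859 and 943 in nonapCAFs 4, 5 and 6. Every apCAFs library was above every nonapCAFs library, and apCAFs 3 stood highest by far, while the nonapCAFs libraries lay close together. Its mean was 4619 ± 2015 in apCAFs and 875.3 ± 61.2 in nonapCAFs (SD, n = 3 each), a 4.99-fold rise (log2 2.32, SE 0.32, 95% confidence interval 1.51 to 3.12, limma adjusted p = 0.0262). Abcc9 (chromosome 6, 142587862 to 142702315, minus strand) read 4774, 4358 and 5704 in apCAFs 1, 2 and 3, against 1512, 1811 and 1688 in nonapCAFs 4, 5 and 6. It varied least among the 3 apCAFs libraries of all 7 genes, with a coefficient of variation of 13.9%. Its mean was 4945 ± 689 in apCAFs and 1670 ± 150 in nonapCAFs (SD, n = 3 each), a 2.95-fold rise (log2 1.56, SE 0.17, 95% confidence interval 1.14 to 1.98, limma adjusted p = 0.0177). For comparison, the DESeq2 adjusted p in the authors' deposited table is 3.36e-14 for Kcnj8 and 2.61e-22 for Abcc9. Without apCAFs 3, which leaves the close pair apCAFs 1 and 2, both genes were still called (limma adjusted p = 0.0084 for Kcnj8 and 0.0182 for Abcc9). The SE of Kcnj8 was then 0.11, against 0.32 with all libraries, so these p-values lean on the likeness of that pair. Neither gene was called when any other single library was left out, with limma adjusted p = 0.101 for Kcnj8 and 0.0681 for Abcc9 without nonapCAFs 4. Over all single omissions, including that of apCAFs 3, Kcnj8 ran from 1.98 to 2.50 and Abcc9 from 1.45 to 1.65 on the log2 scale. With each close pair averaged neither was called (limma adjusted p = 0.225 for Kcnj8 and 0.21 for Abcc9). An antisense RNA gene, 5330439B14Rik, overlaps 2 exons of Abcc9. It read 132, 92 and 107 in apCAFs 1, 2 and 3, against 31, 30 and 31 in nonapCAFs 4, 5 and 6. Because the strand setting of the counting is not given in the sources used here, reads of this pair could be shared, although the antisense values are far below those of Abcc9.

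Kcnj8 and Abcc9 are neighbours in the genome. They lie on the same strand, 16247 bases apart, with 0 other genes of the files between them. Scaled to the length of their merged exons in GENCODE M21, Kcnj8 had 1336, 1377 and 2726 normalized counts per kilobase in apCAFs 1, 2 and 3 and 323.4, 337.1 and 370.1 in nonapCAFs 4, 5 and 6. Abcc9 had 570.2, 520.5 and 681.2 per kilobase in apCAFs 1, 2 and 3 and 180.6, 216.3 and 201.6 in nonapCAFs 4, 5 and 6. The pore gene thus exceeded the regulatory gene in every library on this per-length scale. The ratio of the per-length levels of Kcnj8 to Abcc9 was 2.34, 2.65 and 4.0 in apCAFs 1, 2 and 3, against 1.79, 1.56 and 1.84 in nonapCAFs 4, 5 and 6, a mean of 3.00 ± 0.88 in apCAFs and 1.73 ± 0.15 in nonapCAFs (SD, n = 3 each). All 3 apCAFs ratios were above all 3 nonapCAFs ratios, and an exact two-sided permutation test of the difference in means gave p = 0.10, the smallest that 3 against 3 libraries allow.

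**Figure D2:**
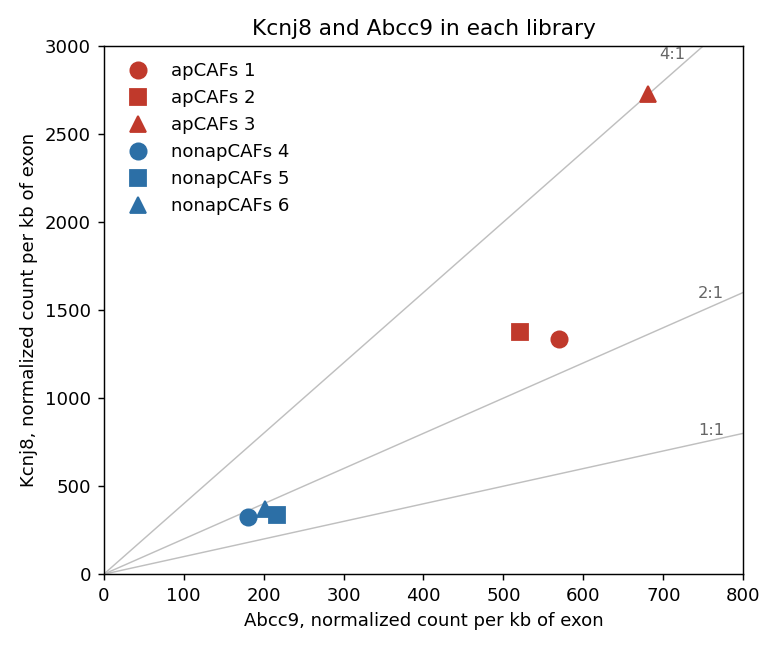
Kcnj8 (y axis) against Abcc9 (x axis) in each library, in normalized counts per kilobase of merged exon, with grey lines at ratios of 1, 2 and 4. The 3 apCAFs libraries lie above the line for 2, with apCAFs 3 on the line for 4, and the 3 nonapCAFs libraries sit together between the lines for 1 and 2.

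The promoters of this pair are shown because these were the only 2 of the 7 genes that were called, and they rose together. RefSeq (GRCm38.p6) gave a promoter for 5 of the 7 genes, Rgs5, Kcnj8, Abcc9, Mcam and Cspg4. Each 300-base window, 250 bases before to 50 after the start site, was searched on both strands for the core motifs of RBPJ (TGGGAA), the effector of Notch, of hypoxia-inducible factors (ACGTG), of forkhead factors (TGTTTAC), for the TATA box (TATAAA) and for the CArG box of serum response factor. The 2 matches were both to the RBPJ core, 1 in Kcnj8 with its first base at position 1 of the transcript and 1 in Abcc9 221 bases before the start, in the orientation of the gene, and neither overlaps another motif searched. Of 32851 promoter windows, 25.6% hold the RBPJ core, 19.6% the hypoxia core, 13.6% the TATA box, 3.65% the forkhead core and 1.63% a CArG box, so such a match is common. The sequences run from 250 bases before the start to 10 bases after it, on the minus strand of chromosome 6 (142571605 to 142571864 for Kcnj8 and 142702265 to 142702524 for Abcc9), with the RBPJ core in capitals.
Kcnj8: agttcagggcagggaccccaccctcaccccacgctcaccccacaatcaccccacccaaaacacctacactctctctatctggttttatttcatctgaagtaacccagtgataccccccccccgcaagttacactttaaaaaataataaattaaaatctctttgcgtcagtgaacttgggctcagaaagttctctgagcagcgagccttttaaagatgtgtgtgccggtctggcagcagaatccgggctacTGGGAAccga
Abcc9: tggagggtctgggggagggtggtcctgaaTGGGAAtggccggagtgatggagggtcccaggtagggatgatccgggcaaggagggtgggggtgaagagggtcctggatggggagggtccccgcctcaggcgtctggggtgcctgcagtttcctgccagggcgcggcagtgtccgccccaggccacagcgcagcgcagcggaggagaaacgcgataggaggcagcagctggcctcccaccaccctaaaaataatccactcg
A match of these letters is a description of the window and does not show binding.

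The surface markers parted. Cspg4 (chromosome 9, 56865033 to 56899870, plus strand) read 625, 663 and 910 in apCAFs 1, 2 and 3, against 330, 414 and 212 in nonapCAFs 4, 5 and 6. The groups did not overlap, with apCAFs 3 the highest library and nonapCAFs 6 the lowest. The mean was 732.7 ± 155 in apCAFs and 318.7 ± 101 in nonapCAFs (SD, n = 3 each), with a log2 fold change of 1.23 (SE 0.31, 95% confidence interval 0.45 to 2.01) that did not pass (limma adjusted p = 0.107). Cspg4 passes in the authors' deposited table (DESeq2 adjusted p = 0.000725), and in limma it passed with a variance trend (adjusted p = 0.0265) and when the test was limited to genes averaging 100 or more (adjusted p = 0.0356). Mcam (chromosome 9, 44134469 to 44142727, plus strand) read 1677, 1504 and 917 in apCAFs 1, 2 and 3, against 1267, 1109 and 771 in nonapCAFs 4, 5 and 6. Here apCAFs 3 was the lowest apCAFs library, below nonapCAFs 4 and 5, the opposite of its place for Kcnj8, Abcc9, Cspg4 and Cox4i2. The log2 fold change of Mcam was 0.36 (SE 0.32, limma adjusted p = 0.518), and its 95% confidence interval of -0.44 to 1.17 leaves room for a change of up to 2.25-fold. The first exon of Mcam is touched by the antisense gene Gm10687, which read 0 to 23 in apCAFs and 12 to 27 in nonapCAFs.

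The mitochondrial markers were faint. Cox4i2 (chromosome 2, 152754173 to 152765037, plus strand) read 75, 46 and 101 in apCAFs 1, 2 and 3, against 22, 36 and 40 in nonapCAFs 4, 5 and 6. The lowest apCAFs library stood just above the highest nonapCAFs library. The mean was 74.0 ± 27.5 in apCAFs and 32.7 ± 9.5 in nonapCAFs (SD, n = 3 each), with a log2 fold change of 1.13 (SE 0.38, 95% confidence interval 0.17 to 2.08) that did not pass (limma adjusted p = 0.198; authors' deposited table, DESeq2 adjusted p = 0.0651). Its widely used relative Cox4i1, named after its values were seen, read 13431, 14589 and 13504 in apCAFs 1, 2 and 3, against 13847, 13074 and 14613 in nonapCAFs 4, 5 and 6, so the ordinary form of the subunit was far more abundant in both groups (log2 fold change 0.00, 95% confidence interval -0.33 to 0.33). Higd1b (chromosome 11, 102835849 to 102838040, plus strand) was listed at 2, 0 and 0 in apCAFs 1, 2 and 3, against 3, 4 and 5 in nonapCAFs 4, 5 and 6. The groups were separated by a few whole numbers after scaling and rounding, and the log2 fold change of -1.77 did not pass (limma adjusted p = 0.136). Its size depended on the pseudocount, at -2.37 with 0.5 and -0.40 with 10. The authors' deposited table gives Higd1b no adjusted p. Its relative Higd1a, also named after its values were seen, read 958, 1199 and 802 in apCAFs 1, 2 and 3, against 950, 1039 and 919 in nonapCAFs 4, 5 and 6.

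Rgs5, one of the most used pericyte markers, was low in apCAFs and scattered in nonapCAFs. Rgs5 (chromosome 1, 169655501 to 169695813, plus strand) read 13, 24 and 53 in apCAFs 1, 2 and 3, against 76, 31 and 227 in nonapCAFs 4, 5 and 6. The groups overlapped, and the libraries of each group were spread widely, with a coefficient of variation of 68.9% in apCAFs and 92.2% in nonapCAFs. The log2 fold change was -1.63 (SE 0.87, 95% confidence interval -3.83 to 0.56) and did not pass (limma adjusted p = 0.351; authors' deposited table, DESeq2 adjusted p = 0.0747). Rgs4, a relative that lies on the same chromosome, behaved otherwise: it rose 8.44-fold (log2 3.08, SE 0.27, limma adjusted p = 0.0137), with 466, 426 and 295 in apCAFs 1, 2 and 3, against 54, 50 and 34 in nonapCAFs 4, 5 and 6. Of the 10 relatives of the 7 genes in their own families, 9 were above 0 in at least 1 library and 2 were called higher, Rgs4 and the adhesion gene Bcam (24.6-fold, log2 4.62, SE 0.22, limma adjusted p = 0.00643). Over all genes tested, 3.91% were called higher. The channel genes Kcnj11 and Abcc8, the relatives of Kcnj8 and Abcc9 used in pancreatic beta cells and named after their values were seen, were at 0 in all 6 libraries and at 0 to 4.

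The order of the 7 genes differed little between the groups. Mean normalized counts per kilobase of exon in apCAFs were 1813 ± 791 for Kcnj8, 590.6 ± 82.3 for Abcc9 and 407.8 ± 119 for Mcam. They were 93.9 ± 34.9 for Cox4i2, 61.4 ± 13 for Cspg4, 6.60 ± 4.55 for Rgs5 and 0.787 ± 1.36 for Higd1b (SD, n = 3 each). Among neighbours in this order, only Cox4i2 and Cspg4 overlapped in apCAFs, at 58.4 to 128 and 52.4 to 76.3 per kilobase. In nonapCAFs the per-length order was Kcnj8 with 343.5 ± 24.0, Mcam with 313.1 ± 75.6 and Abcc9 with 199.5 ± 17.9. It went on with Cox4i2 at 41.5 ± 12.0, Cspg4 at 26.7 ± 8.5, Rgs5 at 24.5 ± 22.6 and Higd1b at 4.72 ± 1.18 per kilobase. There the neighbours Kcnj8 and Mcam overlapped, as did Cox4i2 and Cspg4, and Cspg4 and Rgs5. Abcc9 stood above Mcam in every apCAFs library and below it in every nonapCAFs library on this scale.

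Other genes of the pericyte programme were set beside the 7. The list was chosen with earlier results of these data known. Over all genes tested, 3.91% were called higher and 0.486% lower, and the groups were separated in 17.1% (higher) and 15.4% (lower). Of 20 such genes, 6 rose and 0 fell by limma, with a median log2 fold change of 1.54, and in 15 of 20 every apCAFs library was above every nonapCAFs library. In 1 of 20, the peptidase gene Anpep, every apCAFs library was below every nonapCAFs library, at 2782 to 3326 against 3365 to 3547, and 4 of 20 had a log2 fold change below 0. The count was 13 with a variance trend, 0 with the close pairs averaged, and 2, 1, 3, 2 and 3 without apCAFs 1, apCAFs 2, nonapCAFs 4, nonapCAFs 5 and nonapCAFs 6. Heyl, a target of Notch signalling, read 3730, 3629 and 4802 in apCAFs 1, 2 and 3, against 970, 1019 and 996 in nonapCAFs 4, 5 and 6 (4.04-fold, log2 2.01, SE 0.16, limma adjusted p = 0.0115). Ndufa4l2, a mitochondrial protein gene induced by hypoxia, rose 6.27-fold (log2 2.65, SE 0.24, limma adjusted p = 0.0138), with 2936, 3191 and 4731 in apCAFs 1, 2 and 3, against 628, 585 and 487 in nonapCAFs 4, 5 and 6. Both subunits of the nitric oxide receptor guanylate cyclase rose, Gucy1a1 8.47-fold (log2 3.08, SE 0.37, limma adjusted p = 0.0206) and Gucy1b1 3.42-fold (log2 1.78, SE 0.19, limma adjusted p = 0.0176). The remaining called genes, named outside the rule, were the metalloreductase gene Steap4 (7.09-fold, limma adjusted p = 0.0386) and the receptor gene Notch3 (2.68-fold, limma adjusted p = 0.0454). Pdgfrb, the receptor through which pericytes are recruited (named after its values were seen), had 22501, 21412 and 33405 in apCAFs 1, 2 and 3, against 12532, 12330 and 9778 in nonapCAFs 4, 5 and 6, and did not pass (log2 1.14, limma adjusted p = 0.0679). Vtn, a matrix protein gene of brain pericytes outside the rule, was also low, at 0, 7 and 88 in apCAFs 1, 2 and 3, against 13, 17 and 124 in nonapCAFs 4, 5 and 6. For Rgs5 and Vtn the highest library of each group was apCAFs 3 and nonapCAFs 6. Of 10 genes of the signalling between endothelium and pericytes, 1 rose, the receptor gene Tgfbr2 (2.64-fold, log2 1.40, SE 0.21, limma adjusted p = 0.032), and 0 fell.

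**Figure D3:**
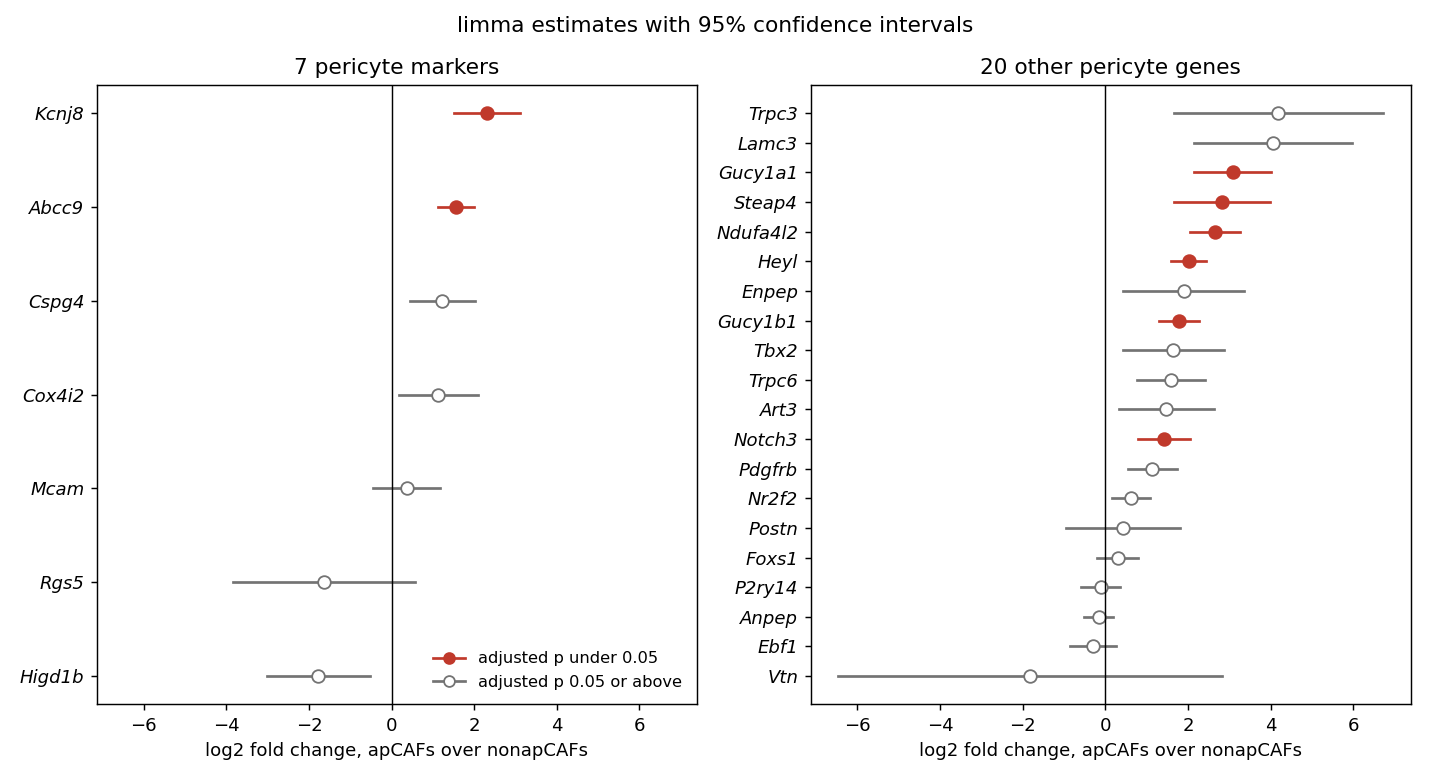
Log2 fold change of apCAFs over nonapCAFs (x axis) from limma, with the 95% confidence interval as a line, for the 7 pericyte markers (left) and 20 other pericyte genes (right), ordered by estimate. Filled points passed an adjusted p of 0.05: 2 of 7 on the left and 6 of 20 on the right, all above 0. Over all genes tested, 3.91% passed with a value above 0.

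Genes with the most similar profile were looked up for each marker among the 13041 genes that averaged 100 or more and whose symbol is not a clone or predicted name. Likeness was the root mean square difference of log2(value + 1) over the 6 libraries, each profile centred on its own mean, and with so few libraries it mainly reflects the difference between the groups and the place of apCAFs 3 and nonapCAFs 6. For Kcnj8 the closest were Pdzrn3 (difference 0.044), Mageh1 (0.071) and Best1 (0.073), and Pdzrn3 read 10514, 10470 and 22017 in apCAFs 1, 2 and 3, against 2596, 2832 and 3012 in nonapCAFs 4, 5 and 6. For Abcc9 they were Ifih1 (0.069), Gpm6b (0.074) and Thy1 (0.086). Thy1, a surface glycoprotein gene of fibroblasts, read 11192, 11324 and 14929 in apCAFs 1, 2 and 3, against 4143, 4392 and 3958 in nonapCAFs 4, 5 and 6. Cspg4 was closest to Eya4 (0.080), Gadd45b (0.087) and Ccn2 (0.11), and Mcam to Plet1 (0.084) and Cx3cl1 (0.098). The faint genes had looser matches: Cox4i2 was closest to Wnt5b (0.17), Ikzf4 (0.17) and Fam83h (0.20), Higd1b to Slc5a5 (0.31), Gfi1 (0.33) and Erc2 (0.37), and Rgs5 to Thbs4 (0.51), Cdh13 (0.71) and Grap (0.79).

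Lists of markers of other cell types were also compared. Some of them moved between the groups, and their part in the differences above was not tested. These lists too were chosen with earlier results of these data known, and over all genes tested 3.91% were called higher and 0.486% lower. Of 12 smooth muscle genes, 4 rose by limma and 0 fell (median log2 fold change 1.34), among them the intermediate filament gene Des (8.91-fold, limma adjusted p = 0.0069), the contractile genes Myl9 (3.71-fold, limma adjusted p = 0.00919) and Tagln (5.02-fold, limma adjusted p = 0.0115), and Synpo2 (2.47-fold, limma adjusted p = 0.0433). The summed normalized counts of this list ran from 42400 to 48575 in apCAFs and from 11262 to 14288 in nonapCAFs. The 7 pericyte markers summed to 10103 to 14630 in apCAFs and 3886 to 4264 in nonapCAFs. Kcnj8 and Abcc9 made up most of this sum in each library, at 3405 and 4774 in apCAFs 1 and at 824 and 1512 in nonapCAFs 4. Of 10 fibroblast genes, 4 rose and 0 fell (median 1.43): Thy1 (2.97-fold, limma adjusted p = 0.0179), the podoplanin gene Pdpn (6.65-fold, limma adjusted p = 0.0183) and the collagen genes Col1a2 (3.51-fold, limma adjusted p = 0.0247) and Col1a1 (3.08-fold, limma adjusted p = 0.0273). The groups were separated upward in 6 of 10 and downward in 1, against 17.1% and 15.4% of all genes tested, and 2 of 10 had a log2 fold change below 0. The 1 was Lum, named outside the rule, at 8086 to 11304 in apCAFs against 15611 to 21256 in nonapCAFs (limma adjusted p = 0.0952). With quantile normalization, which gives every library the same set of values, Col1a1 was not called, at 0.33 on the log2 scale against 1.62 as deposited (limma adjusted p = 0.317), while Col1a2 was, at 1.17 against 1.81 (limma adjusted p = 0.0299). By library totals and by median centring Col1a1 was called, at 1.47 and 1.53 (limma adjusted p = 0.0330 for both). This list summed to 1516628 to 2463848 in apCAFs and 560368 to 617006 in nonapCAFs, over 100 times the pericyte markers in each library. Most of these sums came from Col1a1 and Col1a2, at 878211 and 507923 in apCAFs 1 and at 318172 and 165929 in nonapCAFs 4. Of 9 mesothelial genes, 7 were called higher and 0 lower (median 3.62, sums of 46888 to 59415 in apCAFs and 13548 to 15627 in nonapCAFs). Lrrn4 (60.9-fold, limma adjusted p = 0.00981), Gpm6a (47.6-fold, limma adjusted p = 0.0115), Upk1b (12.3-fold, limma adjusted p = 0.00863) and Msln (11.9-fold, limma adjusted p = 0.0178) were among them. Most of the mesothelial sums in nonapCAFs came from Cpe and Bnc1, which were not called. Cpe and Bnc1 read 8336 and 3378 in nonapCAFs 4, and 8621 and 2968 in apCAFs 1.

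Of 10 endothelial genes, 2 rose and 0 fell by limma (median 0.53, sums of 2894 to 3216 in apCAFs and 1363 to 1674 in nonapCAFs), the junction gene Esam (14.3-fold, limma adjusted p = 0.00911) and the transcription factor gene Erg (4.24-fold, limma adjusted p = 0.035). The shares over all genes tested were 3.91% higher and 0.486% lower. The defining endothelial genes were chosen after their values were seen. Pecam1 had 20 to 129 in apCAFs and 50 to 85 in nonapCAFs, and Cdh5 had 53 to 242 in apCAFs and 52 to 148 in nonapCAFs. In 3 of the 10 endothelial genes the groups were separated upward and in 0 downward, against 17.1% and 15.4% of all genes tested. Also named after their values were seen, Ptprb had 223 to 286 in apCAFs and 34 to 94 in nonapCAFs without being called. Egfl7 had 313 to 861 in apCAFs and 797 to 1147 in nonapCAFs, where it made up most of the sums. Of 8 measured Schwann and glial genes, which matter because glia express Cspg4, 0 were called by limma (median -0.39, sums of 2775 to 4637 in apCAFs and 1684 to 2488 in nonapCAFs). The defining glial gene Sox10, named outside the rule, was at 0 to 2 in apCAFs and 0 to 9 in nonapCAFs, while the most abundant of the list were Mbp, with a mean of 2733 ± 823 in apCAFs and 1599 ± 377 in nonapCAFs, and Ngfr, with 327.0 ± 280 in apCAFs and 66.3 ± 7.8 in nonapCAFs (SD, n = 3 each). Of 8 alveolar type II genes, 0 were called by limma (median 4.83). Surfactant transcripts were high in apCAFs 1 and 2 alone, where the list summed to 89012 and 73068, against 1157 in apCAFs 3 and 1769 to 2310 in nonapCAFs. Most of the low sums came from Lamp3, named outside the rule, which read 800 in apCAFs 3 and 1530 to 1903 in nonapCAFs. Sftpc read 48853, 40491 and 226 in apCAFs 1, 2 and 3, against 124 to 185 in nonapCAFs, and Sftpb 13826, 10327 and 72, against 32 to 129 in nonapCAFs. Without apCAFs 3, which leaves only the close pair apCAFs 1 and 2, both passed, Sftpc at 8.09 and Sftpb at 7.52 on the log2 scale (limma adjusted p = 0.00521 and 0.0174). That choice drops the apCAFs library without the signal, and the SE of Sftpc was then 0.25, against 2.21 with all libraries. With the close pairs averaged neither passed (limma adjusted p = 0.586 for both). Kcnj8, Abcc9, Cspg4 and Cox4i2 were at their highest in apCAFs 3, which lacked this surfactant signal, and Mcam at its highest in apCAFs 1 and 2. Of 8 leukocyte genes, 0 were called by limma (median 1.05, sums of 2132 to 3337 in apCAFs and 1638 to 1802 in nonapCAFs). The most abundant were Csf1r, with a mean of 1746 ± 637 in apCAFs and 896.7 ± 21.6 in nonapCAFs, and Itgax, with 249.0 ± 64.9 in apCAFs and 545.0 ± 16.5 in nonapCAFs (SD, n = 3 each).

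**Figure D4:**
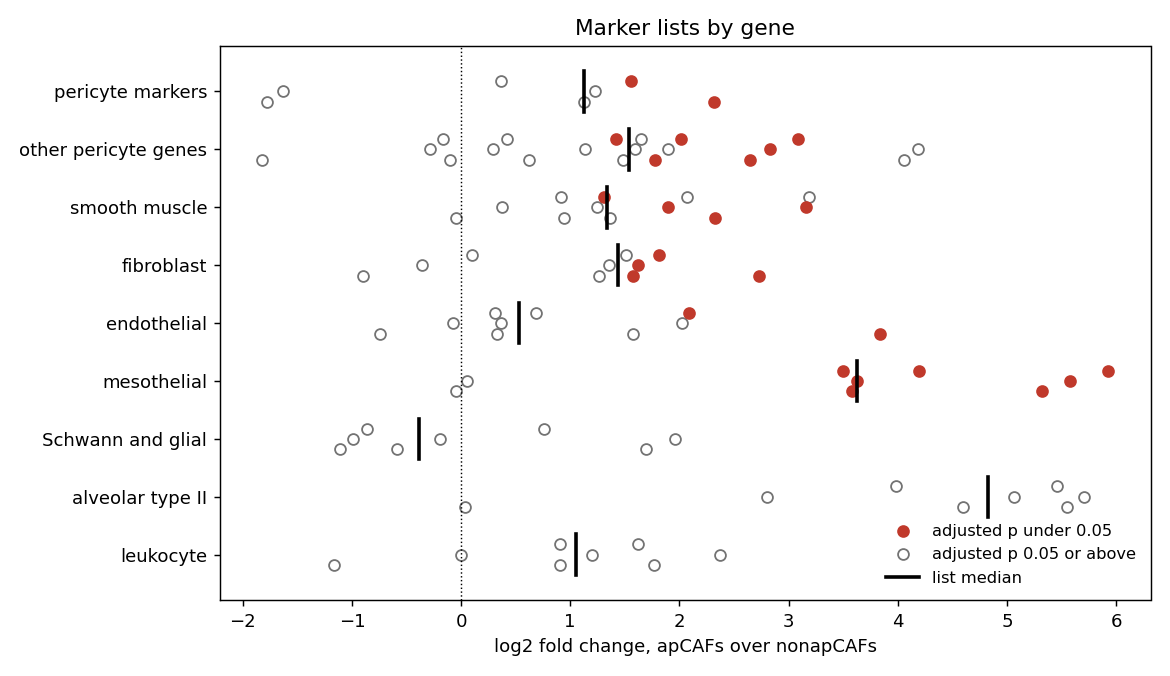
Log2 fold change of apCAFs over nonapCAFs (x axis) for each gene of 9 marker lists (rows), with filled points for an adjusted p under 0.05 by limma and a black bar at the list's median. The pericyte markers have 2 filled points and a median of 1.13, the mesothelial genes 7 filled points and a median of 3.62, and the alveolar type II genes no filled point beside a median of 4.83. Over all genes tested, 3.91% were called higher and 0.486% lower.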

How the data were processed

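RNA-seq values were deposited for 3 apCAFs and 3 nonapCAFs libraries. Per the file headers, these score values are counts per gene after the authors' normalization, given as whole numbers, and they are not raw counts. Their totals run from 77960347 to 93330791 and are not depths, so no counting interval is given. The deposited table also holds the authors' DESeq2 p-value and adjusted p-value per gene, a fold change as a ratio, log2 values and the GC percent of each gene, per the file headers. Tools named in the submitters' processing notes are Trim Galore, Bowtie2 and DESeq2, with the build mm10; counter, annotation and strand setting: not given in the sources used here.

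From these values limma 3.58.1 (R 4.3.3) took log2(value + 1), with no term besides the group, a constant prior variance and no robust step, for the 36443 genes that had a value above 0 somewhere; 18855 others were at 0 in all. P-values were two-sided, adjusted by Benjamini-Hochberg over the whole table, with calls made at 0.05. The added 1 shrinks fold changes of faint genes. Coordinates are those of the files, identical for the 7 genes to GENCODE M21 (GRCm38), which gave exon lengths and overlaps. The members and lists were chosen with earlier results of these data known. Named genes are the 7 members, up to 4 called genes of each other list by smallest p or else its 2 most abundant, and the 3 most similar profiles per member, of which 1 is not reported here.

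Libraries within a group were not equally distant: over 17829 genes averaging 100 or more, the log2 ratio had an SD of 0.238 between apCAFs 1 and 2 and 0.246 between nonapCAFs 4 and 5, while the remaining within-group pairs had 0.479 to 0.708. The p-values assume independent libraries. Alternatives covered the pseudocount (0.5 and 10), filters on low values, scaling, a variance trend, averaging the close pairs and leaving out libraries.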

Additional observations from a re-analysis of the deposited data

How the results depend on the processing

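Of 17 alternatives, 1 turned a direction among the 7 markers: with apCAFs 1 and 2 both left out, a choice made after seeing the data that leaves apCAFs 3 alone and assumed to vary like the nonapCAFs libraries, Mcam was at -0.16 and Higd1b at -2.30 (limma adjusted p = 0.752 and 0.0484), and 4575 genes were called. Abcc9 and Kcnj8 kept their direction in every alternative. With the close pairs averaged limma called 0 genes (before adjustment, p was under 0.05 for 3491 with higher and 1209 with lower values), 0 of the 7 markers and 0 of the 20 other pericyte genes, with Kcnj8 at 2.46 (limma adjusted p = 0.225) and Abcc9 at 1.61 (limma adjusted p = 0.21). Without a filter it called 436 genes, 1 marker and 3 of the 20, with Kcnj8 at 2.32 (limma adjusted p = 0.0733). The count of all genes, 1602, was 2527 with a pseudocount of 10, 2465 and 2748 for genes averaging 10 and 100 or more, and 3453 with a variance trend, which called 13 of the 20. Cspg4, at 1.23, passed in the variance trend and in the filter at 100. Leaving out 1 library at a time gave 310 to 1791 genes, 0 to 2 markers and 1 to 5 of the 20. Log2 fold changes then ran from 1.98 to 2.50 for Kcnj8, 1.45 to 1.65 for Abcc9, 0.96 to 1.45 for Cspg4, 0.16 to 0.63 for Mcam, 0.87 to 1.43 for Cox4i2, -2.31 to -0.90 for Rgs5 and -2.30 to -1.51 for Higd1b, which passed without apCAFs 1 (limma adjusted p = 0.0489). Dividing by library totals, quantile normalization and median centring moved the median of all genes to -0.18, -0.19 and -0.14, against -0.04 as deposited, and the 7 markers kept their signs and the 2 calls. Quantile normalization gave 1049 higher and 281 lower calls, against 1425 and 177. For 27 named genes of the other lists, 0 of 459 values turned direction and 88 lost a call. No paired analysis was possible because the groups share no replicate number in the labels. The cause of these differences was not tested. Depth is unknown, so it cannot be said how many reads stand behind Higd1b, Rgs5 and Cox4i2.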
